A study of Homo sapiens with 9 samples.

Results

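The 10 genes described here code for heat shock proteins of the cytosol and the mitochondrion: HSPA8, HSP90AA1, HSP90AB1, HSPD1, HSPE1, HSPA9, HSPA1A, HSPA1B, DNAJA1 and HSPH1. They were chosen by name, and a peak belonged to a gene if it overlapped the GENCODE gene by at least 1 nt on its strand in GRCh38. They make up 10 of the 19964 genes with a peak in the multiplexed libraries. The peaks come from antibody-barcode eCLIP (ABC), in which RNA crosslinked to an RNA-binding protein (RBP) receives the barcode oligonucleotide of the antibody that caught it, so that several RBPs can share a tube. In 10plex ABC, DDX3, EIF3G, FAM120A, IGF2BP2, LIN28B, PRPF8, PUM2, RBFOX2, SF3B4 and ZC3H11A were pooled in K562 cells, an erythroleukemia line (3 replicates), and in HEK293T cells, an embryonic kidney line that the study's methods call HEK293XT (2 replicates). In singleplex ABC, RBFOX2 was taken alone from HEK293T cells and SLBP alone from K562 cells, with 2 replicates each. No treatment, heat included, is named for any group, and the labels do not say whether replicates came from separate cultures, so the p-values below measure the spread between these samples, which may be technical.

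Heat shock proteins are chaperones, which hold, fold or refold other proteins. HSPA8 is the constitutive and HSPA1A and HSPA1B the stress-inducible Hsp70 of the cytosol, DNAJA1 is an Hsp40 co-chaperone that delivers clients to Hsp70, and HSPH1 is an Hsp110 that exchanges its nucleotide. HSP90AA1 and HSP90AB1 are the inducible and the constitutive Hsp90 of the cytosol. HSPA9 is the Hsp70 of the mitochondrial matrix, where HSPD1 and its cap HSPE1 form the chaperonin Hsp60 and Hsp10. The RBPs act at different steps: PRPF8 and SF3B4 are spliceosome subunits at the 5' splice site and the branch point, RBFOX2 is a splicing regulator, EIF3G and DDX3 act in translation initiation, and PUM2, IGF2BP2, FAM120A, LIN28B and ZC3H11A bind mature or nuclear mRNA.

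Read numbers were recovered from the deposited folds and P values of the peaks, most firmly in K562 cells. The reads in merged peaks ran from 13666 to 2191290 per library in K562 cells and from 23136 to 2675518 in HEK293T cells, with PUM2 and EIF3G the shallowest. Levels are given as RPM, where 1 RPM is 1 read in 1000000 reads in the merged peaks of a library. A floor of 3 reads was worth 161.1 to 219.5 RPM in the PUM2 libraries of K562 cells and 1.37 to 3.62 RPM in those of FAM120A, and these floors cover counting error only. The cell line field of both HEK293T pools in the labels names K562, and that of K562 replicate 3 reads K563, so the pools were grouped by their titles. The titles were checked with markers: 8 erythroid genes summed to 1133 to 1607 RPM per K562 pool and to 0 to 0.507 RPM per HEK293T pool, where 7 of the 8 had no peak. The 4 HEK293 markers NEFM, NEFL, INA and PAX2 summed to 7.49 to 25.1 RPM per K562 pool and to 160.9 to 179 RPM per HEK293T pool. PAX2 alone overlapped between the lines. The heat shock genes held 1536 of the 748856 merged peaks of the K562 pools, which is 0.205%, and 1419 of the 1191120 of the HEK293T pools, which is 0.119%.

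Most reads inside these gene bodies in the pools did not belong to the mRNA. Small nucleolar RNAs in the introns of HSPA8 (SNORD14C, SNORD14D and SNORD14E) and of HSPA9 (SNORD63 and SNORD63B) took 76.9% of the reads in the K562 pools and 51.5% in the HEK293T pools. They had more reads than the mRNAs of the 10 genes in 29 of 30 K562 libraries but in 12 of 20 HEK293T libraries, and in singleplex RBFOX2 ABC they took 11%. SNORD14E alone had 29599 reads over the 30 K562 libraries, beside 195 reads for the HSPA8 mRNA. Of the snoRNA peaks with a value against the other RBPs, 0 of 120 in K562 cells and 0 of 43 in HEK293T cells were enriched, and their highest log2 fold was 2.65, in SNORD14D. The snoRNA peaks were set apart, which left 1209 mRNA peaks in K562 cells and 1251 in HEK293T cells for all that follows.

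The levels of the mRNAs in the pools differed widely. Per 1000 nt of mRNA and averaged over the 10 RBPs, HSP90AB1 had 376.1 ± 6.99 RPM and HSP90AA1 216.2 ± 31.3 RPM in K562 cells (SD, n = 3 pools), without overlap of the pools. HSPE1 with 85.6 ± 14.1 RPM and HSPA9 with 73.5 ± 15.5 RPM came next and overlapped, as did HSPD1, HSPA1A, HSPA1B and HSPA8 with means of 42.3 to 17.2 RPM. DNAJA1 and HSPH1 had the lowest means, 7.24 ± 2.51 and 3.32 ± 1.54 RPM. The pools of DNAJA1 overlapped those of HSPH1, HSPA8 and HSPA1B, and HSPA8 was above DNAJA1 in replicate 3 only, where it had 95.5 RPM before division by length, against 11.6 and 9.7 RPM in replicates 1 and 2. In HEK293T cells the Hsp90 genes were again first, with 174.4 ± 9.11 RPM for HSP90AB1 and 165.5 ± 28.9 RPM for HSP90AA1 (SD, n = 2 pools), but their pools overlapped. HSPE1 and HSPD1 followed with 112.8 ± 23.5 and 111.2 ± 23.8 RPM, with pools below those of the Hsp90 genes and overlapping each other, and the other genes with peaks had 11.5 to 36.5 RPM. Only uniquely mapped reads were counted, and GENCODE names 26 pseudogenes of HSPE1, 18 of HSPD1 and 17 of HSPA8, so these levels can miss reads that also fit a pseudogene.

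**Figure D1:**
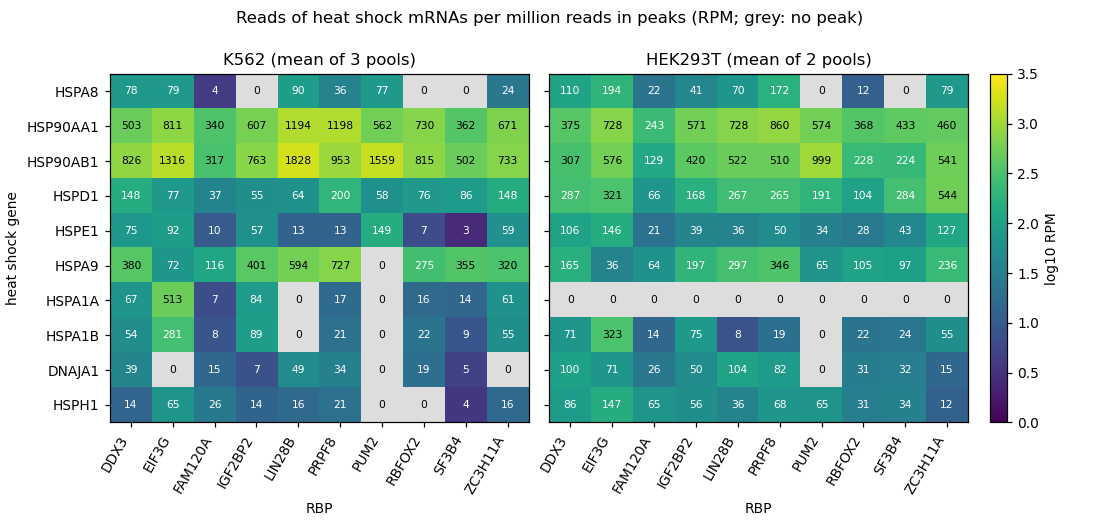
Mean RPM of each heat shock mRNA (rows) in the libraries of each RBP (columns) for the K562 and HEK293T pools, coloured on a log10 scale, with grey for a gene without a peak. The Hsp90 rows are the brightest in both lines, and the HSPA1A row has 513 RPM in EIF3G in K562 cells and no peak in HEK293T cells.

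Over the other RBPs of the pool, the mRNA peaks of the heat shock genes were called enriched less often than all peaks of the same libraries, which was not tested. All peaks here include those on small RNAs and outside protein-coding genes. An enriched peak has P below 0.001 and a fold above 8 over the complement control (CC), which is the reads of the other 9 RBPs of the same pool at that place. In K562 cells 107 of the 1093 mRNA peaks with a CC value were enriched (9.79%; 25, 47 and 35 per pool), against 20.5% of all peaks, and each of the 10 genes had at least 1. In HEK293T cells 48 of 1110 were enriched (4.32%; 26 and 22 per pool), against 13.4% of all peaks. PRPF8 gave the most, with 7, 12 and 8 enriched peaks in the K562 pools (15.2%, all peaks 22.5%) and 10 and 8 in the HEK293T pools (10.5%, all peaks 17.1%). SF3B4 had 4, 9 and 8 in K562 cells (18.4%, all peaks 30.9%) and 3 and 2 in HEK293T cells (5.38%, all peaks 24.2%). FAM120A, whose libraries are among the deepest, had 1 of 186 in K562 cells (0.538%, all peaks 18.6%) and 0 of 162 in HEK293T cells (all peaks 19.7%). LIN28B had 16 of 101 in K562 cells (15.8%, all peaks 37.6%) and 3 of 102 in HEK293T cells (2.94%, all peaks 27.3%). PUM2 in HEK293T cells was the exception, with 5 of 18 (27.8%, all peaks 22.6%). Among these 5 were the only PUM2 peaks of HSPA9, HSPE1 and HSPH1 there, each with 3 reads, which is the floor.

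The remaining RBPs were also below their background. In K562 cells EIF3G had 14 of 47 (29.8%, all peaks 32.3%), IGF2BP2 13 of 140 (9.29%, all peaks 12.1%), DDX3 9 of 105 (8.57%, all peaks 21.3%), PUM2 3 of 15 (20%, all peaks 31.2%), RBFOX2 2 of 140 (1.43%, all peaks 11.2%) and ZC3H11A 1 of 67 (1.49%, all peaks 22.6%). In HEK293T cells RBFOX2 had 5 of 181 (2.76%, all peaks 5.61%), EIF3G 4 of 53 (7.55%, all peaks 20.2%), DDX3 4 of 107 (3.74%, all peaks 12.6%), IGF2BP2 3 of 144 (2.08%, all peaks 4.93%) and ZC3H11A 1 of 79 (1.27%, all peaks 12%). The counts depend on the limits of the call and on the background. With any fold above 1 they rose to 267 in K562 cells and 211 in HEK293T cells, a limit at which the share of all peaks is not given here. Against the external background that the authors also used they were 896 of 1209 (74.1%, all peaks 49.9%) and 82 of 1251 (6.55%, all peaks 34.7%). The share in K562 cells was thus above that of all peaks on this background. There the median log2 fold of the heat shock peaks was 5.64 in K562 cells and -0.45 in HEK293T cells. The external background was not common to all libraries. Its recovered size relative to the pool differed between RBPs in K562 cells, and in HEK293T cells it was the same for every RBP except RBFOX2. The values over it therefore do not compare the lines.

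**Figure D2:**
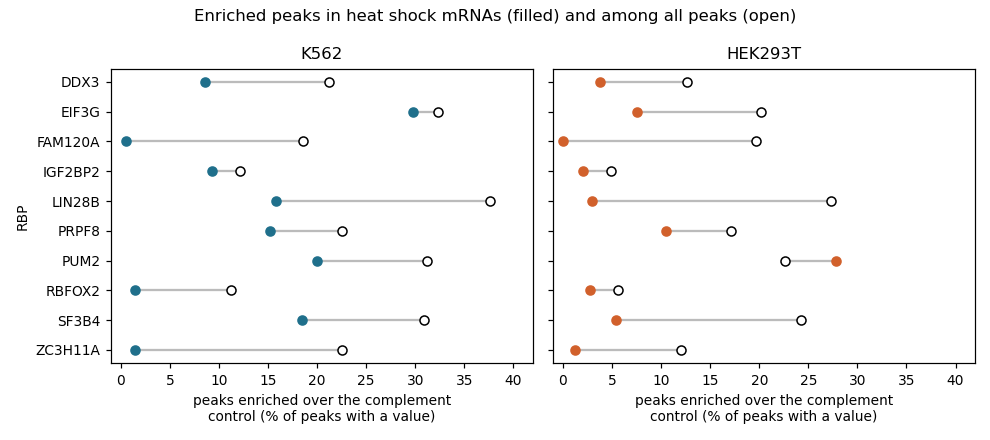
Share of peaks enriched over the CC for each RBP in the K562 and HEK293T pools, for the 10 heat shock genes (filled points) and for all peaks (open points), as a percentage of peaks with a CC value. The filled point lies left of the open point for every RBP in K562 cells and for all but PUM2 in HEK293T cells. There it is at 27.8%, from 5 of 18 peaks, against 22.6%.

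Most peaks lay in the coding sequence. A peak over several regions was given to the CDS first. The CDS held 73.3% ± 3.81 of the mRNA peaks in K562 cells (SD, n = 3) and 76.0% ± 2.15 in HEK293T cells (SD, n = 2), where all protein-coding genes had 48.1% and 41.2%. Introns held 2.91% ± 0.649 and 4.31% ± 0.350, against 17.6% and 30.4% in all protein-coding genes. The shift was present within single RBPs: FAM120A had 65.8% ± 0.738 of its K562 heat shock peaks in the CDS and 25.4% ± 2.96 in the 3' UTR, whereas in all genes it had 23.5% and 55.1%. RBFOX2 had 14.7% ± 1.04 of its HEK293T peaks in introns of the heat shock genes and 63.4% in introns of all genes. These shares were not tested, and by the peak's centre the CDS share was 63.5% in K562 cells and 69.6% in HEK293T cells.

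**Figure D3:**
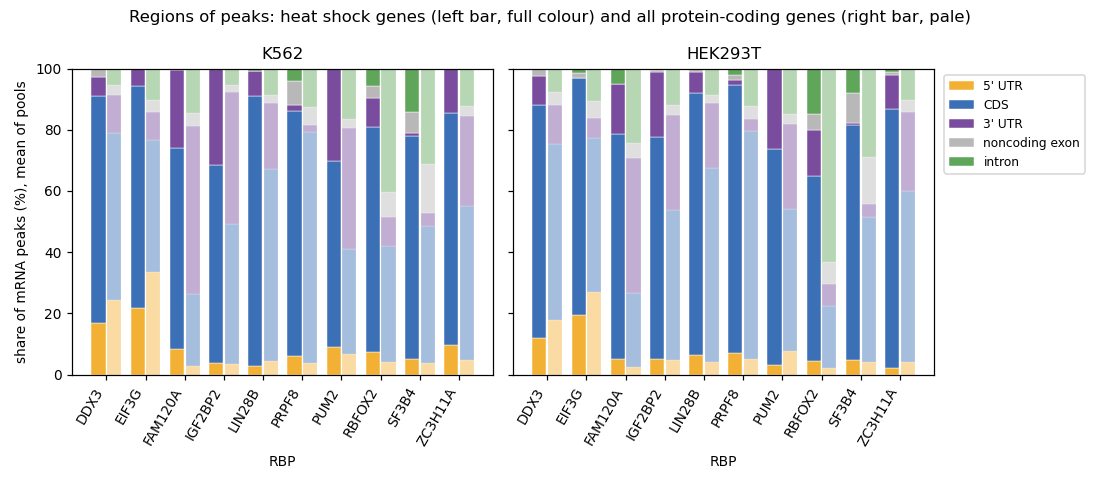
Stacked bars of the mean share of mRNA peaks in each region, per RBP and line, with the heat shock genes in full colour on the left and all protein-coding genes pale on the right. The class labelled noncoding exon holds exons outside the canonical transcript of a gene, which can be coding in other transcripts. The CDS part of the left bar is the larger in all 20 pairs, and FAM120A in K562 cells goes from 23.5% in all genes to 65.8% in the heat shock genes.

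The regions of the enriched peaks were counted for each RBP, beside those of all enriched peaks of protein-coding genes. EIF3G had 8 of its 14 enriched K562 peaks in the 5' UTR (all genes 49.8%) and 6 in the CDS (all 30.9%), and in HEK293T cells 2 of 4 in the 5' UTR (all 47.7%). DDX3 had 6 of 9 in the 5' UTR in K562 cells (all 41.2%) and 0 of 4 in HEK293T cells (all 39.5%). There 2 lay in the CDS and 2 in exons outside the canonical transcript. IGF2BP2 had 11 of 13 in the 3' UTR in K562 cells (all 51.4%) and 3 of 3 in HEK293T cells (all 51.4%). All 3 and all 5 enriched peaks of PUM2 were in the 3' UTR (all 47.5% and 38.0%), and all 16 and all 3 of LIN28B were in the CDS (all 67.2% and 64.5%). These counts were not tested, and several rest on 3 to 5 peaks.

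For PRPF8 and SF3B4 the enriched peaks sat at exon borders. Of the 27 enriched PRPF8 peaks in K562 cells, 26 had their centre within 50 nt of an exon 3' end (96.3%, all protein-coding genes 87.8%), as did 16 of 18 in HEK293T cells (88.9%, all 84.6%). The median centre lay 12 nt into the intron in K562 cells and 8 nt in HEK293T cells. Because such peaks still touch the exon, 19 and 15 of them counted as CDS. Of the 21 enriched SF3B4 peaks in K562 cells, 16 had their centre in the last 50 nt of an intron (76.2%, all 69.5%), with a median of 32 nt before the exon. In HEK293T cells only 5 SF3B4 peaks were enriched, of which 2 lay there (40%, all 57.0%). HSPA1A and HSPA1B, which have a single exon, had no enriched peak of either RBP.

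**Figure D4:**
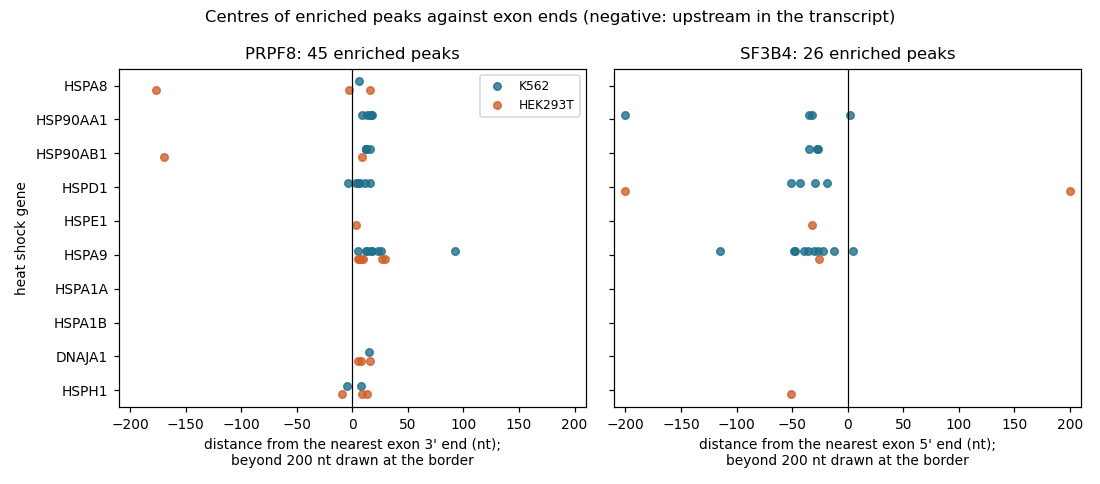
Distance in nt from the centre of each enriched peak to the nearest exon 3' end for PRPF8 (left) and to the nearest exon 5' end for SF3B4 (right), by gene, for K562 and HEK293T peaks. PRPF8 points gather just right of 0, in the first bases of the intron, and SF3B4 points gather left of 0, in the last 50 nt of the intron.

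The sites found in every replicate are shown with their sequence. A site was taken when enriched peaks of an RBP overlapped in all 3 K562 replicates, which held for 7 pairs of a gene and an RBP, or in both HEK293T replicates, which held for 5 pairs. The PRPF8 sites are given by the 30 bases around the exon 3' end nearest to them, 5' to 3' on the gene's strand, with the first 2 bases of the intron in capitals. The first 2 were found in K562 cells and the last 3 in HEK293T cells.
HSP90AB1, chr6:44247180-44247209, + strand: tccttttcttttcaagGTaaggctgagatc
HSPD1, chr2:197494642-197494671, - strand: gtcatcacagtaaagGCaagtgtgtttgta
HSPH1, chr13:31154618-31154647, - strand: gattgtgttatttcaGTaagtataattcag
HSPA9, chr5:138566611-138566640, - strand: tcctcatctgtgcagGTgagacacggaaaa
DNAJA1, chr9:33037100-33037129, + strand: aatcatcgaatttaagGTaagctgtaatgt

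The intron of HSPD1 begins with GC, while the others begin with GT. The HSP90AB1 site lay at chr6:44247193-44247221, at the end of the exon in the 5' UTR, and had 22, 24 and 41 PRPF8 reads against 7, 9 and 12 reads of the other 9 RBPs together in the K562 pools. Its mean log2 fold was 4.08 ± 0.243 (SD, n = 3), and it was also enriched in 1 HEK293T pool with a log2 fold of 4.23. The HSPD1 site at chr2:197494623-197494688 had 22, 32 and 38 reads against 11, 18 and 13, a mean log2 fold of 3.59 ± 0.168 (SD, n = 3). In HEK293T cells it had peaks in both pools, none of them enriched, with a highest log2 fold of 2.65. The HSPH1 site at chr13:31154611-31154640 had 5 and 9 reads against 1 and 5 in the HEK293T pools, with a mean log2 fold of 4.13 ± 1.05 (SD, n = 2), and was enriched in 2 K562 peaks as well. HSPA9 had 3 such sites in HEK293T cells, the one shown with 27 and 26 reads against 8 and 10 and a mean log2 fold of 4.11 ± 0.277 (SD, n = 2). DNAJA1 had 12 and 14 reads against 5 and 5, with a mean log2 fold of 3.92 ± 0.146 (SD, n = 2). At each of these sites PRPF8 alone had more reads in each pool than the other 9 RBPs together. The limit of a fold above 8 already requires this at the PRPF8 share of the pools' reads, so it is no separate result.

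The highest fold of the K562 sites belonged to SF3B4 in HSPA9. It lay at chr5:138561806-138561839, with its centre 34 nt upstream of a coding exon. It had 6, 20 and 8 SF3B4 reads against 2, 5 and 3, a mean log2 fold of 5.19 ± 0.259 (SD, n = 3). No SF3B4 peak was found there in HEK293T cells. The 30 bases around the exon's start are shown with the last 2 bases of the intron in capitals.
HSPA9, chr5:138561774-138561803, - strand: catttcctttgcAGactgacatcaatttgc

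HSPA1A, the inducible Hsp70, was the gene whose reads leaned most to one RBP. In the EIF3G libraries of K562 cells it had 307.8, 495.1 and 736.8 RPM, from 10, 23 and 34 reads. In the other 27 libraries it had 0 to 129.4 RPM, so that the groups did not overlap. Its share was higher in EIF3G than in the other 9 RBPs by 4.23 ± 0.501 on the log2 scale (SE; limma with adjusted p = 8.89e-07), computed on log2 of RPM plus 10. Its EIF3G site at chr6:31815694-31815750, the stretch shared by the 3 peaks, ended just before the start codon and had 10, 16 and 17 reads against 37, 19 and 40, a mean log2 fold of 4.53 ± 0.901 (SD, n = 3). The start codon and the bases around it are shown with the codon in capitals.
HSPA1A, chr6:31815744-31815773, + strand: gcagggaaccggcATGgccaaagccgcggc

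HSPA1B, which starts 12195 nt from HSPA1A and is 99.8% identical to it over the 1923 nt of the CDS, was also higher in EIF3G. EIF3G gave 0, 129.2 and 715.1 RPM in K562 cells and 270.5 and 375.1 RPM in HEK293T cells. In HEK293T cells the 18 libraries of the other RBPs stayed at or below 96.1 RPM and did not overlap, while in K562 cells replicate 1 had no HSPA1B read in EIF3G. The differences were 1.98 ± 0.688 in K562 cells (adjusted p = 0.0282) and 3.32 ± 0.396 in HEK293T cells (adjusted p = 8.44e-05; SE, limma). The K562 difference was 1.74 without replicate 2 (adjusted p = 0.239) and 0.73 without replicate 3 (limma with adjusted p = 0.478). Among all genes, 5.13% in K562 cells and 6.87% in HEK293T cells were higher in EIF3G, and of the heat shock genes HSP90AB1 in K562 cells (0.68 ± 0.249, adjusted p = 0.0355) and HSPA8 in HEK293T cells (2.15 ± 0.410, adjusted p = 0.00222; SE, limma) were the others. HSPA9 was lower in EIF3G in both lines, by -3.06 ± 0.492 and -2.35 ± 0.753 (SE, limma with adjusted p = 4.3e-05 and 0.0346), with reads in 1 library of each line. Lower calls were common in EIF3G, with 42.2% of all genes in K562 cells and 26.1% in HEK293T cells.

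Both Hsp70 copies also carried IGF2BP2 sites in their 3' UTR. Their share was higher in IGF2BP2 than in the other RBPs in K562 cells, by 1.40 ± 0.501 for HSPA1A (adjusted p = 0.0326) and 1.91 ± 0.688 for HSPA1B (adjusted p = 0.0335; SE, limma), where 24.7% of all genes were. Neither passed without K562 replicate 2 (limma with adjusted p = 0.232 and 0.178) or replicate 3 (adjusted p = 0.132 and 0.0637). HSPA1B had its site at chr6:31830005-31830068, 164 nt past the stop codon, with 7, 11 and 33 reads against 2, 11 and 10 and a mean log2 fold of 4.26 ± 0.878 in K562 cells (SD, n = 3). It was the only K562 site of this kind besides HSP90AB1 that was enriched in HEK293T cells too, where it had 15 and 17 reads and a mean log2 fold of 3.42 ± 0.579 (SD, n = 2). HSPA1A had a site at chr6:31817872-31817905 with 6, 11 and 25 reads against 3, 11 and 11, a mean log2 fold of 3.81 ± 0.535 (SD, n = 3). HSPE1, the Hsp10 of the mitochondrion, had a weaker one at chr2:197503299-197503336, 62 nt past the stop codon, with 6, 15 and 32 reads and a mean log2 fold of 3.08 ± 0.0971 (SD, n = 3). The 30 bases that hold the most CAT, a core known from IGF2BP binding, at or beside each site are shown with CAT in capitals. The stretch was picked for its CAT, and the share of other peaks with CAT was not counted. Whether CAT is more common at these sites was therefore not tested. The second CAT of HSPE1 lies past the end of its site, as does the end of the second of HSPA1B.
HSPA1B, chr6:31830041-31830070, + strand: aaccgatatgttCATtagaattctttgCAT
HSPA1A, chr6:31817874-31817903, + strand: ttttaatacacttaactcaggcCATttttt
HSPE1, chr2:197503316-197503345, + strand: gaaatctttcgtCATgtaaataatttcCAT

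HSPA1A had 314 reads in the K562 pools and no peak in any of the 20 HEK293T libraries. A floor of 3 reads in each of those 20 libraries, which is 60 reads, would be 3.83 RPM of all their reads in peaks. In K562 cells the share was 29.3 RPM, which is 7.66-fold that floor. The floor is the fewest reads of a peak, and reads outside peaks are not in the lists, so the fold is not a lower bound. HSPA1B had 289 reads in K562 cells and 487 in HEK293T cells. Of these reads, 18.7% lay in the CDS in K562 cells and 62.4% in HEK293T cells. Reads that fit both copies are not counted, and whether reads of one copy were assigned to the other was not tested.

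**Figure D5:**
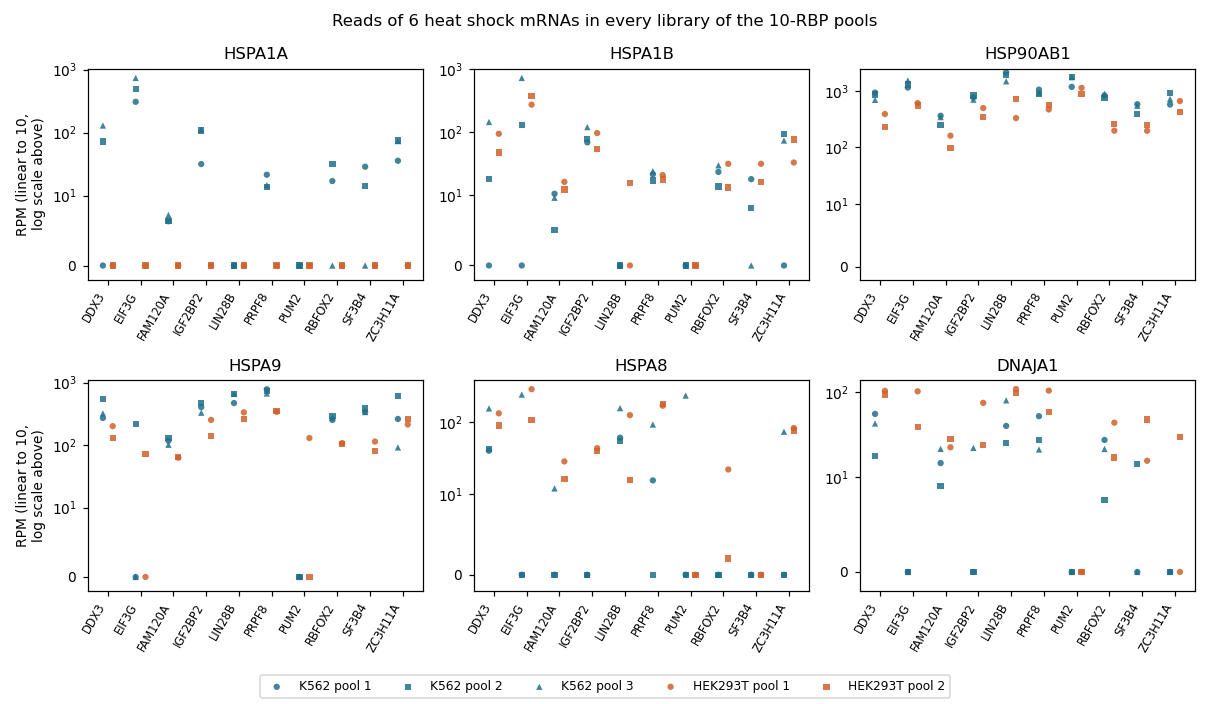
RPM of 6 heat shock mRNAs in every library of the pools, with K562 in blue and HEK293T in orange and a symbol per pool, on an axis that is linear to 10 RPM and logarithmic above. EIF3G stands apart for HSPA1A in K562 cells (307.8 to 736.8 RPM) and for HSPA1B in HEK293T cells (270.5 and 375.1 RPM), and HSP90AB1 is lowest in FAM120A in both lines.

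Across the 100 pairs of a heat shock gene and an RBP in K562 cells, 16 were called higher than in the other 9 RBPs and 11 lower (limma, adjusted p below 0.05), where 18.4% and 16.9% of the pairs of all 7722 genes were. In HEK293T cells, where HSPA1A was not tested, 7 of 90 were higher and 9 lower, with 14.5% and 13.1% among 11420 genes. Each of these shares of the heat shock pairs was below that of all pairs. The K562 count of 27 was 34 without replicate 1, 19 without replicate 2 and 14 without replicate 3. HSPA1A in EIF3G, HSP90AB1 in FAM120A and LIN28B, HSP90AA1 in PRPF8, HSPA9 in PRPF8, EIF3G and PUM2, and DNAJA1 in LIN28B kept their call whichever replicate was left out, and every other K562 pair lost it without at least 1. Of the pairs called lower, 6 in K562 cells and 4 in HEK293T cells had no read in any library of the RBP. These were PUM2, EIF3G, ZC3H11A and LIN28B in K562 cells and PUM2 and SF3B4 in HEK293T cells. In the PUM2, EIF3G and ZC3H11A libraries a floor of 3 reads is 28.0 to 219.5 RPM in K562 cells. Lower calls were common there: PUM2 had 56.8% of all genes lower in K562 cells and 51.4% in HEK293T cells. EIF3G had 42.2% and 26.1% lower, and ZC3H11A 25.1% and 17.3%.

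The Hsp90 mRNAs were read in all 50 libraries. HSP90AB1 had 361.6, 246.9 and 342.2 RPM in FAM120A in K562 cells, below all 27 other libraries (383.5 to 2112 RPM), and 160.8 and 96.8 RPM in HEK293T cells, below all 18 others (196.4 to 1124 RPM). The differences were -1.57 ± 0.249 (adjusted p = 3.54e-05) and -1.69 ± 0.327 (adjusted p = 0.00238; SE, limma). HSP90AA1 was lower in FAM120A as well, by -1.02 ± 0.237 in K562 cells (adjusted p = 0.00172) and -1.12 ± 0.281 in HEK293T cells (adjusted p = 0.0106). Of all genes 6.54% in K562 cells and 6.26% in HEK293T cells were lower in FAM120A and 28.4% and 23.0% higher, while no heat shock gene was higher. The median difference of the heat shock genes in FAM120A was -0.76 and -0.86, beside 0.21 and 0.10 over all genes. SF3B4 was also lower for both Hsp90 genes in K562 cells, by -0.89 ± 0.237 for HSP90AA1 (adjusted p = 0.00548) and -0.86 ± 0.249 for HSP90AB1 (adjusted p = 0.00971; SE, limma), with 8.88% of all genes lower.

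The share of HSP90AB1 was highest in PUM2 among the RBPs of the HEK293T pools. HSP90AB1 had 1171, 1772 and 1734 RPM in the PUM2 libraries of K562 cells, from 16, 33 and 30 reads, and 1124 and 875.1 RPM in those of HEK293T cells, from 26 and 39 reads. The HEK293T libraries of the other RBPs stayed at or below 715.7 RPM, whereas in K562 cells LIN28B reached 2112 RPM. The differences were 0.94 ± 0.249 (adjusted p = 0.00521) and 1.52 ± 0.327 (adjusted p = 0.00458; SE, limma), and in K562 cells it was 0.81 without replicate 2 (adjusted p = 0.0847) and 0.84 without replicate 3 (adjusted p = 0.0732). Among all genes 2.85% and 1.98% were higher in PUM2. In K562 cells 1 of the 8 HSP90AB1 peaks of PUM2 with a CC value was enriched (all peaks 31.2%). In HEK293T cells 0 of 9 were (all peaks 22.6%), and the enriched PUM2 peaks of the heat shock genes lay in HSPD1, HSPA9, HSPE1 and HSPH1. The motif TGTANATA, with N any base, was looked for on the gene's strand in 100 nt around each peak's centre, and was found for 1 of the 3 enriched PUM2 peaks of the heat shock genes in K562 cells and 1 of 5 in HEK293T cells, beside 21.4% and 13.1% of all enriched PUM2 peaks and 8.86% and 4.92% of all PUM2 peaks.

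LIN28B was higher for 5 of the 10 genes in K562 cells, where 20.7% of all genes were. HSP90AB1 had 2112, 1904 and 1467 RPM there, with a difference of 1.20 ± 0.249 (adjusted p = 0.000643), and HSP90AA1 had 1587, 776.6 and 1218 RPM, with 0.93 ± 0.237 (adjusted p = 0.00368). HSPA9, HSPA8 and DNAJA1 were higher by 1.83 ± 0.492, 2.19 ± 0.589 and 1.55 ± 0.355 (SE, limma with adjusted p = 0.00569, 0.00569 and 0.00156), the last 2 from 6 to 23 reads per library. In HEK293T cells only DNAJA1 passed, with 109.7 and 98.3 RPM and a difference of 1.44 ± 0.504 (SE, limma with adjusted p = 0.049976, just under the threshold of 0.05), beside 11.4% of all genes. Neither HSPA1A nor HSPA1B had a LIN28B read in K562 cells, at a floor of 12.7 to 20.2 RPM, and HSPA1A was called lower there (-2.02 ± 0.501, limma with adjusted p = 0.00317). In HEK293T cells HSPA1B was lower in LIN28B, by -1.52 ± 0.396 (adjusted p = 0.0131; SE, limma), from 0 and 4 reads. GGAG, a motif known from LIN28 binding to RNA, was found in the 100 nt around 11 of the 16 enriched LIN28B peaks in K562 cells and 2 of 3 in HEK293T cells. It was found for 59.0% and 57.9% of all enriched LIN28B peaks and for 56.8% and 56.3% of all LIN28B peaks, enriched or not.

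PRPF8 was higher for HSPA9, with 782.7, 728.5 and 669 RPM in K562 cells against 0 to 659.6 RPM in the 27 other libraries, without overlap and with a difference of 2.17 ± 0.492 (adjusted p = 0.00149; SE, limma). In HEK293T cells HSPA8 was higher in PRPF8, with 167.4 and 176.4 RPM and 2.13 ± 0.410 (adjusted p = 0.00233). HSP90AA1 in both lines and DNAJA1 in K562 cells were called higher too, by 0.98, 0.85 and 1.13, but these pairs changed sign when each library was centred on its median gene (HSP90AA1 -0.55 and -0.15, DNAJA1 -0.40). PRPF8 was higher for 49.4% of all genes in K562 cells and 28.6% in HEK293T cells.

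DDX3, the RNA helicase, was higher for HSPA8 in both lines, by 1.89 ± 0.589 in K562 cells (adjusted p = 0.0154) and 1.44 ± 0.410 in HEK293T cells (adjusted p = 0.0201; SE, limma). HSPA8 had 39.9, 42.1 and 153.4 RPM in DDX3 in K562 cells and 131.3 and 89.4 RPM in HEK293T cells. DNAJA1 was higher in DDX3 in K562 cells, by 1.29 ± 0.355 (adjusted p = 0.00675), from 7, 3 and 9 reads, while 14.1% of all genes in K562 cells and 16% in HEK293T cells were higher in DDX3. HSPA8 was lower in RBFOX2 in HEK293T cells, with 22.0 and 2.003 RPM and -1.44 ± 0.410 (adjusted p = 0.0205; SE, limma). None of the heat shock genes was called higher in RBFOX2, SF3B4 or ZC3H11A, where 18.9%, 14% and 5.49% of all genes were in K562 cells and 25.3%, 10.8% and 6.16% in HEK293T cells.

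The chaperonin genes HSPD1 and HSPE1 and the Hsp110 gene HSPH1 had no pair called in either line. HSPD1 had mean levels from 37.5 ± 10.6 RPM in FAM120A to 200 ± 41.8 RPM in PRPF8 in K562 cells (SD, n = 3) and from 66.1 ± 11.6 RPM in FAM120A to 544.3 ± 428.0 RPM in ZC3H11A in HEK293T cells (SD, n = 2). HSPE1 ran from 2.73 ± 4.74 RPM in SF3B4 to 148.6 ± 129.0 RPM in PUM2 in K562 cells, and in HEK293T cells from 20.8 ± 0.917 RPM in FAM120A to 145.8 ± 85.2 RPM in EIF3G. HSPH1 was highest in EIF3G in both lines, with 64.9 ± 65.0 and 146.7 ± 25.3 RPM. In both lines the libraries behind these highest values of HSPE1 and HSPH1 overlapped those of other RBPs. Over all 10 genes, 9 pairs were called in the same direction in both lines: HSPA8 with DDX3, HSP90AA1 with PRPF8 and FAM120A, HSP90AB1 with FAM120A and PUM2, HSPA9 with EIF3G, HSPA1B with EIF3G, and DNAJA1 with LIN28B and PUM2. This is 10% of the 90 pairs tested in both, beside 18% of the 71060 pairs of all genes. DNAJA1 had no read in any PUM2 library of either line, and its difference there changed sign on centring in K562 cells, as that of HSP90AA1 in PRPF8 did in both.

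RBFOX2 had few enriched peaks in these genes, but all of them had its motif in or near the peak. GCATG was found in the 100 nt around the centre of 2 of 2 enriched peaks in K562 cells and 5 of 5 in HEK293T cells, on the gene's strand. Of all enriched RBFOX2 peaks, 57.0% and 61.8% had it there. Peaks were counted in each replicate, so a site can count more than once. Both K562 peaks lay in HSPA9 and 3 of the HEK293T peaks in HSP90AA1. Among all RBFOX2 peaks of the heat shock genes it was found for 15.0% and 21.7%, below the 25.2% and 28.0% of all peaks. The site enriched in both HEK293T replicates lay at chr14:102138839-102138880, inside the span of HSP90AA1 but upstream of its canonical transcript, in an intron of a longer one, and had 8 and 14 reads against 2 and 3 with a mean log2 fold of 3.62 ± 0.164 (SD, n = 2). A peak of HSPA9 at chr5:138570856-138570904, in an exon of a noncoding transcript, was enriched in 1 HEK293T pool with a log2 fold of 3.29. In singleplex RBFOX2 ABC the peaks of the 2 replicates that share this stretch had 66 and 24 reads. Their log2 folds over the external background were 5.24 and 4.63. Both are shown with the motif in capitals, which for HSP90AA1 lies outside the site.
HSP90AA1, chr14:102138866-102138895, - strand: GCATGtaatgtacagggtctagatttataa
HSPA9, chr5:138570875-138570904, - strand: aagagcctcaGCATGttgatgaggatccct

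In singleplex RBFOX2 ABC, 152 and 138 mRNA peaks lay in 9 of the heat shock genes, again with none in HSPA1A. Over the external background 17 of them were enriched in replicate 1 (11.2%, all peaks 8.63%) and 13 in replicate 2 (9.42%, all peaks 12.5%). The CDS held 51.7% ± 9.87 and introns 18.3% ± 9.48 of the peaks (SD, n = 2), against 10.5% and 74.8% in all protein-coding genes. The highest mean fold was at chr6:31830200-31830248 in the 3' UTR of HSPA1B, with 71 and 56 reads, a mean log2 fold of 5.60 and no GCATG. The 1 peak of the 10plex RBFOX2 libraries there has no CC value. Singleplex SLBP ABC, whose protein binds histone mRNAs, had 12 and 3 mRNA peaks with 62 and 9 reads in the heat shock genes. HSP90AB1 had 40 and 3 of these reads.

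The lines were compared by the mean log2 value over the 10 RBPs, with 1 value per pool. A gene's share of reads depends on the amount of its mRNA and on its binding, which cannot be told apart here, and each pool is of 1 line, so that line and batch cannot be told apart either. An exact permutation of 3 pools against 2 cannot go below p = 0.1. Of the 10 genes, 4 were higher in HEK293T cells (all 9147 genes 40.9%) and 2 lower (all genes 11.1%). HSPH1 had 3.97, 4.38 and 4.59 in the K562 pools and 5.87 and 5.64 in the HEK293T pools, a difference of 1.44 ± 0.231 (adjusted p = 0.00239; SE, limma). HSPD1 was higher by 1.49 ± 0.459 (adjusted p = 0.0309), DNAJA1 by 1.17 ± 0.192 (adjusted p = 0.00264) and HSPE1 by 0.90 ± 0.252 (adjusted p = 0.0215). HSP90AB1 had 9.76, 9.73 and 9.75 in K562 cells and 8.65 and 8.55 in HEK293T cells, lower by -1.15 ± 0.163 (adjusted p = 0.00150), and HSPA1A was lower by -1.81 ± 0.215 (adjusted p = 0.000729). HSPA1A had no read in the HEK293T pools, so its value in both was 3.32, which is log2 of the 10 added to RPM. The size of its difference therefore depends on that 10. HSPD1 lost its call without K562 replicate 2 or either HEK293T replicate, and HSPE1 without either HEK293T replicate (limma with adjusted p from 0.0703 to 0.115). In none of these 6 genes did the pools of the lines overlap. The median over all genes was 0.45, and with each library centred on its median gene, which moved the median of all genes to -0.15, 1 gene was called higher (HSPH1, 0.84) and 4 lower, among them HSP90AB1 (-1.75) and HSPA1A (-2.42). The shares of all genes called after centring are not given here, and those above are without it.

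The test of a difference in preference between the lines was passed by 2 of the 100 pairs, both lower in HEK293T cells (all genes 1.70%; higher 0 of 100, all genes 2.26%), and neither sets 2 measured preferences against each other. HSPA1A in EIF3G gave -4.23 ± 0.665 (adjusted p = 0.000112; SE, limma), which repeats its K562 value with the sign turned, since HSPA1A had no read in HEK293T cells and so no preference there. HSPA8 in PUM2 gave -2.87 ± 0.838 (adjusted p = 0.0443; SE, limma) and had 4 reads in 1 PUM2 library of K562 cells and none in the other PUM2 libraries, where a floor of 3 reads is 67.3 to 129.7 RPM in HEK293T cells. Without K562 replicate 2 no pair passed, and HSPA1A was then not tested, since it had peaks in too few libraries. At an unadjusted p below 0.05 there were 15 such pairs of the 100. The share of all pairs at that limit is not given here, so this count cannot be set against it.

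Of 45 other chaperone and co-chaperone genes, 42 were tested in each line. They had 77 pairs higher and 80 lower of 420 in K562 cells (18.3% and 19%, all genes 18.4% and 16.9%), and 62 and 63 in HEK293T cells (14.8% and 15%, all genes 14.5% and 13.1%), shares close to those of all genes. FKBP4, an Hsp90 co-chaperone, was higher in LIN28B in K562 cells by 3.41 ± 0.3001 (adjusted p = 1.21e-08), and by 1.28 in HEK293T cells (adjusted p = 0.141). FKBP5, another, was higher in FAM120A by 4.98 ± 0.533 in K562 cells (adjusted p = 2.2e-07) and 3.95 in HEK293T cells (adjusted p = 6.43e-05; SE, limma). STIP1, which links Hsp70 to Hsp90, was lower in EIF3G in K562 cells by -3.10 ± 0.323 (SE, limma with adjusted p = 1.55e-07), as were 42.2% of all genes. A floor of 3 reads in EIF3G is 64.6 to 92.3 RPM there. In HEK293T cells STIP1 had a difference of 0.44 (limma with adjusted p = 0.486).

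The genes outside the list whose 20 preferences (10 RBPs in each line, log2) were most like those of a heat shock gene were found among the 7108 gene entries tested in both lines. NCL, which codes for nucleolin, was nearest to HSP90AA1 (Pearson r = 0.949 over the 20 values) and to HSP90AB1 (r = 0.869). HSPA9 was nearest to NPLOC4 (r = 0.951), HSPD1 to GPAA1 (r = 0.904), HSPA1B to NKRF (r = 0.907), DNAJA1 to NF2 (r = 0.904), HSPH1 to CAB39 (r = 0.874), HSPE1 to RPL35A (r = 0.854) and HSPA8 to RNU5F-1 (r = 0.774). The 20 values share libraries and depths, and these correlations are descriptions of the 20 values.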

How the data were processed

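Peak lists of 4 singleplex samples and of 5 10plex pools with 10 RBPs each were used. The authors trimmed adapters with cutadapt 2.8, removed reads that mapped to repetitive elements, mapped what remained uniquely to GRCh38 with STAR 2.7.6 (versions from the submitters' processing notes), collapsed PCR duplicates and ran CLIPper on each library. The deposited CLIPper lists give a p-value and a display score for each peak, and the deposited merged lists a −log10 P and a log2 fold over an external background. For the pools the authors also deposited CC values. In the HEK293T lists and those of K562 replicates 1 and 2 these are chi-squared results without peaks in repeats, whereas the lists of K562 replicate 3 keep such peaks and give a −log10 P and a log2 fold. The RBP of each list is the one in its file's name.

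The lists hold no read counts: reads per peak were recovered as the whole numbers whose ratio gives the log2 fold and whose test gives the P over the external background, and CC reads from the CC values. In K562 cells the P set the reads for 97.7% of the heat shock peaks, in HEK293T cells for 22.4%, where the CC statistic was used instead; where P set them, that rule gave the same reads for 83.3% to 98.7% of peaks. In simulated lists of K562 replicate 3, CC direction was recovered for 93.3% to 98.6% of peaks and all enriched peaks. Regions came from GENCODE release 44; peaks on small RNAs were set apart.

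RPM were taken from the mRNA peaks of a gene and all merged peaks of the library, and a read in touching peaks counts in each. log2(RPM + 10) was tested with limma 3.58.1 (R 4.3.3) on genes with peaks in at least 10 of 30 K562, 7 of 20 HEK293T or 17 of 50 libraries, each RBP against the mean of the other 9 with the pool as a block, adjusted by Benjamini-Hochberg over all genes and RBPs. On simulated data 59.5% of 4-fold differences were called in K562 cells (7256 genes) and 20.5% in HEK293T cells (10920 genes), with 3.90% and 0.995% of unchanged pairs. Reads of 3, the fewest that CLIPper takes, were used as the floor.

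All 10 genes are named. Sites are, for each gene and RBP, the one with the highest mean log2 fold among those enriched in every replicate; those of HEK293T cells and the RBFOX2 sites of HSPA9 and HSPA1B were added after their values were seen. Of 45 other chaperone genes, the 3 with the smallest adjusted p in K562 cells are named, and the gene most alike each heat shock gene by Pearson's r. Sequences are from GRCh38. The genes, lists and tests were chosen with earlier results of these data known. Alternatives covered the limits of the call, the background, pseudocounts, filters, scaling, regions and left-out replicates; a chi-squared P for every replicate, the smallest whole ratio as reads, and leaving out PUM2 and EIF3G were chosen after seeing the data.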

Additional observations from a re-analysis of the deposited data

Results flagged for a closer look

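HSPA1A in EIF3G and HSPA8 in PUM2 passed the test of a difference in preference between the lines, although neither had reads in the HEK293T libraries of that RBP. HSPA1A had 307.8, 495.1 and 736.8 RPM in the EIF3G libraries of K562 cells and 0 in both of HEK293T cells, where no library of any RBP had an HSPA1A read. No preference could be measured in HEK293T cells, so the value of -4.23 (HEK293T minus K562, log2) is the K562 difference with its sign turned. It passed in the 10 alternatives in which it was tested, and without K562 replicate 2 it had peaks in too few libraries to be tested. HSPA8 in PUM2 gave -2.87. It had 0, 0 and 231.2 RPM in the K562 libraries, the last from 4 reads, and 0 in both HEK293T libraries, where a floor of 3 reads is 67.3 to 129.7 RPM, and it lost its call in 9 of 11 alternatives. Without K562 replicate 3, where no PUM2 library of either line has an HSPA8 read, it was -1.88 (limma with adjusted p = 0.0396).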

How the results depend on the processing

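Enriched heat shock peaks per pool numbered 35.7 in K562 cells and 24 in HEK293T cells. Stricter limits (P below 1e-05, fold above 16) gave 12 and 5, and any fold above 1 gave 89 and 106. The shares of all peaks at these 2 limits are not given here. The external background, which was not the same for every RBP and line, gave 299 and 41. Leaving out each replicate gave 30 to 41 and 22 to 26. The CDS share of 73.3% and 76.0% became 63.5% and 69.6% by the peak's centre and 80.6% and 81.1% by reads, and ranged from 71.1% to 74.5% and 74.5% to 77.5% without each replicate. Of the gene and RBP pairs, 27 were called in K562 cells and 16 in HEK293T cells. Exact permutation of RBP labels within replicates left 2 (HSPA1A with EIF3G and HSP90AB1 with FAM120A, where the smallest p is 0.001) and 0. Leaving out each K562 replicate gave 14 to 34, the lowest without replicate 3; without a HEK293T replicate no spread is left to test. Centring on the median gave 17 higher and 18 lower in K562 cells and 14 and 10 in HEK293T cells, and leaving out PUM2 and EIF3G gave 28 and 20 pairs. The shares of all pairs under these settings are not given here. Centring reversed HSP90AA1 in PRPF8 (-0.55 in K562, -0.15 in HEK293T cells) and, in K562 cells, DNAJA1 in PRPF8 (-0.40) and in EIF3G, PUM2 and ZC3H11A (0.28 each); the cause was not tested. The difference of preferences, 2 pairs, became 1 with no replicate block or a pseudocount of 1, 5 after centring and 0 to 6 without each replicate (0 without K562 replicate 2). The line difference, 6 genes, ranged from 4 to 7. Of the 51 pairs and genes called, 6 kept their call under every alternative in which they were tested and 45 lost it under at least 1. Replicate numbers do not pair the lines (r of -0.22 to 0.22), and the pool block changed no other count beyond 1.5 times. Depth limits PUM2 most, where 3 reads are 161.1 to 219.5 RPM in K562 cells.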
